A study of Mus musculus with 4 samples.

Results

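The immediate early AP-1 genes were followed as 10 rows of a gene-by-cell count matrix from the mouse tibia. They are Fos, Fosb, Fosl1 and Fosl2 of the Fos family, Jun, Junb and Jund of the Jun family, and Atf3, Egr1 and Ier2. They were chosen by name, and each of the 10 was found as a single row among the 31053 genes of the matrix. The cells came from the proximal and distal tibia of 1 male mouse at postnatal day 6 (P6), with both tibiae pooled into 1 10x library that was sequenced as 4 entries. The genotype was Col10a1Cre;Rosa26-Tdtomato;Irx3 +/Δ;Irx5 +/-, given as the Irx3/5 heterozygous control, and every cell came from that mouse. By the study's methods 1 Irx3 allele is removed in HC by the same Cre, and the secondary ossification centers had been cut off. Col10a1Cre is a Cre recombinase driven from the type X collagen gene of hypertrophic chondrocytes (HC), so it turns on tdTomato in HC and leaves it on in their descendants. With 1 library from 1 mouse there was no replicate. No difference below was tested for that reason, and all intervals cover counting error only. PCR copies had been collapsed by unique molecular identifiers (UMIs).

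After filtering, 8255 cells with a median of 13957 UMIs were kept and fell into 31 clusters, of which 29 were named from marker genes as 22 classes. Of the classes, 6 were chondrocyte-like (1975 cells), 3 were osteogenic (1166 cells of marrow stromal progenitor-like, immature osteoblast-like and mature osteoblast-like clusters) and 10 were of the blood lineage (3687 cells). The names were rebuilt here and may differ from those of the study. Cluster 28 was led by Col10a1 but had 1 HC marker and 2 monocyte markers (F13a1 and Fn1) among its 10 leading genes, and clusters 11 and 13 were led by Il1b and Tnf with no monocyte marker among theirs. These are called by their numbers. The osteoclast-like cluster was led by the macrophage genes C1qa, C1qb and C1qc, with Acp5, Atp6v0d2 and Ctsk of the osteoclast markers also among its 10 leading genes. Its values may mix both cell types. The 10 genes took no part in the clustering.

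Fos proteins pair with Jun proteins through a leucine zipper to form AP-1, a transcription factor that binds short palindromic sites, while Jun proteins can also pair with one another and with ATF family members such as Atf3. Fos, Fosb, Jun, Junb, Atf3, Egr1 and Ier2 are classic immediate early genes, which are transcribed within minutes of a growth factor, mechanical or stress signal without new protein synthesis, and whose transcripts are short-lived. Fosl1 and Fosl2 (Fra-1 and Fra-2) usually follow later, and Jund is expressed more steadily. In bone, Fos is required for osteoclast formation, and Fosl1, Fosl2 and Junb are known for their roles in osteoblasts and bone matrix. The same genes respond to tissue digestion. The cells had been released with dispase and type II collagenase in a warm, shaken digest, and no sample taken without digestion was analysed here, so transcripts present in the bone and transcripts made during isolation cannot be told apart.

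Promoter windows are shown for 4 of the genes that were abundant in skeletal cells (Fos, Fosb, Jun and Junb) and for F3, which encodes tissue factor, the cell-surface starter of blood clotting, and marks a group of chondrocytes described further on. Each runs from base -160 to base -1 of the RefSeq gene start on GRCm38.p6, 5′ to 3′ on the gene's strand. Capitals mark 4 motifs, each searched on both strands. The first was the site bound by AP-1, written TGANTCA with N for any base. The next was a variant of it bound by pairs of Jun and ATF proteins, TGACATCA. The others were the core of the cAMP response element, written TGACG, which overlaps neither of the former as printed here, and the box that places the start of transcription, TATAAA. The windows lie at chr12:85473730-85473889 on the forward strand (Fos), chr7:19310046-19310205 on the reverse strand (Fosb), chr4:95052223-95052382 on the reverse strand (Jun), chr8:84978749-84978908 on the reverse strand (Junb) and chr3:121723377-121723536 on the forward strand (F3).
Fos: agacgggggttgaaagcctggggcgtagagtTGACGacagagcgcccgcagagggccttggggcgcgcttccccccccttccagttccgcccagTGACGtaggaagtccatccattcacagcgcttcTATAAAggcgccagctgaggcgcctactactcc
Fosb: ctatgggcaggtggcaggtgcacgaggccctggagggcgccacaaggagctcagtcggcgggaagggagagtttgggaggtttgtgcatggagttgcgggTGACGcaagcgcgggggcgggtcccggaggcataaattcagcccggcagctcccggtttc
Jun: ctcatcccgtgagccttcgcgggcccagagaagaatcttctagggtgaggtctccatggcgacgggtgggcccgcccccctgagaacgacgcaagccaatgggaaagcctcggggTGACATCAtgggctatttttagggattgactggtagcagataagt
Junb: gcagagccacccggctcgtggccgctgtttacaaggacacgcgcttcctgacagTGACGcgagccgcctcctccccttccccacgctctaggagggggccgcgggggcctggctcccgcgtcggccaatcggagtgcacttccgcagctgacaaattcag
F3: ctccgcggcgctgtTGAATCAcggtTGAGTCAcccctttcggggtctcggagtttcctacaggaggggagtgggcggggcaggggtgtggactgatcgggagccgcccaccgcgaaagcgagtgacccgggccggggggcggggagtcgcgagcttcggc
Fos held TGACG at bases -129 and -66 and a TATA box at -33, Fosb held TGACG at -60, Junb held it at -106, and Jun held TGACATCA at -45. The F3 window held a pair of TGANTCA matches, at -146 and -135, which none of the other 4 windows had. Among 32851 promoter windows of the same length, TGANTCA was found in 4.53%, TGACATCA in 2.38%, TGACG in 13.8% and TATAAA in 8.01%. A match describes the letters of the window only. Of the 10 genes and F3, 8 had a promoter in the table. Atf3, Jund and Fosl2 were searched too but are not shown. Atf3 held TGACG at -7 on the reverse strand, and Jund and Fosl2 held none of the 4 motifs.

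In the GENCODE M21 annotation of GRCm38, the build named in the submitters' processing notes as mm10, Fos lies at chr12:85473890-85477273 on the forward strand with 4 exons and Jun at chr4:95049034-95052222 on the reverse strand as a single exon. Fosl1 lies at chr19:5447547-5455946 and Fosl2 at chr5:32135801-32157842, both on the forward strand and with 4 exons each. Junb (chr8:84974484-84978718), Jund (chr8:70698949-70700616) and Ier2 (chr8:84661331-84662852) are single-exon genes on chromosome 8. F3 lies at chr3:121723537-121735048 with 6 exons. The levels below are a gene's UMIs per 1000000 UMIs of all genes, both summed over the cells of a class (CPM), and they count transcript 3′ ends.

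The 10 genes together took 0.391% of all UMIs in the kept cells, and they were abundant in every chondrocyte-like, osteogenic and vascular class. Their summed level lay between 3853 and 6975 CPM over the 6 chondrocyte-like classes, between 4867 and 6377 CPM over the 3 osteogenic classes and between 4533 and 5616 CPM over the fibroblast-like, pericyte-like and endothelial-like classes. In the 10 classes of the blood lineage it lay between 613 and 2981 CPM. The ranges of the first 3 groups overlapped one another, and none overlapped that of the blood lineage.

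**Figure D1:**
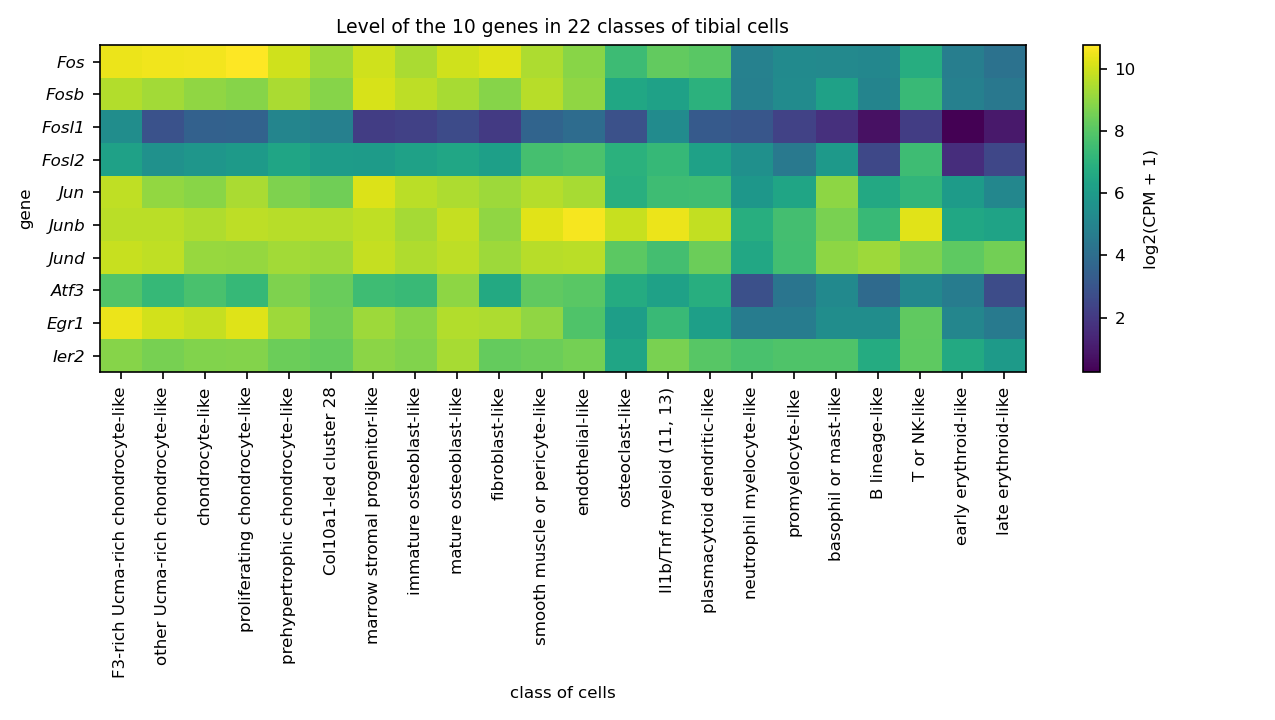
Level of each of the 10 genes (rows) in each of the 22 classes (columns), as log2(CPM + 1) on the color scale. Rows of Fos, Fosb, Egr1 and Atf3 are dark in most blood-lineage columns on the right, Junb is bright in endothelial-like cells and in clusters 11 and 13, and Fosl1 is low throughout.

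Fos was highest in cartilage and lowest in red cell precursors. By class, its level was 1723 CPM in proliferating chondrocyte-like cells (95% counting interval 1687 to 1760), 1506 CPM in chondrocyte-like cells, 1465 CPM in the other Ucma-rich chondrocyte-like cells and 1410 CPM in the F3-rich ones. Single clusters within these classes differed, with 1842 CPM in F3-rich cluster 2 (interval 1779 to 1907), above the proliferating cells, 1742 CPM in chondrocyte-like cluster 19 (1718 to 1767), whose interval overlapped theirs, and 953 CPM in chondrocyte-like cluster 21. Fibroblast-like cells followed at 1198 CPM, with 967 CPM in cluster 20 and 1432 CPM in cluster 26 (interval 1377 to 1489). The interval of cluster 26 overlapped that of the other Ucma-rich cells. Prehypertrophic chondrocyte-like cells (1028 CPM), mature osteoblast-like cells (1009 CPM) and marrow stromal progenitor-like cells (1004 CPM) could not be ordered, since their intervals overlapped. Below them came pericyte-like cells at 696 CPM, immature osteoblast-like cells at 693 CPM, cluster 28 at 595 CPM and endothelial-like cells at 473 CPM. The endothelial-like clusters were unlike, with 1226 CPM in the 80 cells of cluster 22 (interval 1153 to 1302) and 402 CPM in the 748 cells of cluster 9. Within the blood lineage the Il1b- and Tnf-led clusters 11 and 13 stood at 298 CPM. The osteoclast-like cluster, which macrophage genes led, stood at 175 CPM. Promyelocyte-like (38.3 CPM), basophil or mast-like (35.7 CPM) and B lineage-like cells (33.2 CPM) were among the lowest, and late erythroid-like cells were at the bottom with 17.4 CPM. Of the 21 neighbouring pairs in this order, 9 had overlapping intervals. These intervals leave out the spread between cells, so the order of the other pairs is not settled either.

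A droplet can also pick up free RNA of other cell types, so low levels were read against a background. Late erythroid-like cells had 32.1 Fos UMIs for every 1000 UMIs of Col2a1, the cartilage collagen that they should not express, against 31.4 in chondrocyte-like cells and 36.6 in the other Ucma-rich cells. Immature osteoblast-like cells had 1462 and fibroblast-like cells 1060 on the same scale. After thinning every cell to 5000 UMIs, a Fos UMI was found in 8.39% of late erythroid-like cells (exact binomial interval 6.03 to 11.3%; median depth before thinning 12481 UMIs), which serves as the background share, and in 90.4% of chondrocyte-like cells (median depth 25851 UMIs). The share was 54.5% in clusters 11 and 13 and 36.2% in osteoclast-like cells, both above the interval of that background. In B lineage-like cells it was 8.40% and in promyelocyte-like cells 7.95%, with intervals that overlapped that of the background. Their summed levels (33.2 and 38.3 CPM) and their Fos UMIs per 1000 Col2a1 UMIs (51.9 and 129) were above those of late erythroid-like cells, so these measures differ on whether the classes exceed the background. Among B lineage-like cells, the 39 cells of cluster 23 held 120 CPM of Fos and the other clusters 26.2 and 30.6 CPM.

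Fosb, whose protein pairs with Jun proteins as Fos does, was highest in progenitors of the osteogenic side. Its level was 1100 CPM in marrow stromal progenitor-like cells (interval 1058 to 1143) and 839 CPM in immature osteoblast-like cells, against 455 to 740 CPM over the chondrocyte-like classes. Mature osteoblast-like cells, at 665 CPM, lay inside that range, pericyte-like cells held 787 CPM, and endothelial-like cluster 22 (80 cells) held 1039 CPM. Proliferating chondrocyte-like cells were with cluster 28 at the low end of the chondrocyte-like classes in Fosb (455 and 463 CPM, with overlapping intervals). Fosb stood at 20.8 CPM in late erythroid-like cells, again the lowest.

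Jun, the main AP-1 partner of Fos, was also highest in marrow stromal progenitor-like cells at 1179 CPM (interval 1135 to 1224). It was 855 CPM in F3-rich chondrocyte-like cells, 812 CPM in immature osteoblast-like cells and 711 CPM in mature osteoblast-like cells. Prehypertrophic chondrocyte-like cells (426 CPM) and cluster 28 (360 CPM) held the least among skeletal classes. In the blood lineage the basophil or mast-like cells stood apart at 497 CPM, with a UMI in 61.6% of thinned cells (10.8% in late erythroid-like cells), while the next highest blood class had 184 CPM.

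Junb did not follow the skeletal pattern. It was highest in endothelial-like cells at 1558 CPM (interval 1534 to 1583), then in clusters 11 and 13 at 1402 CPM, pericyte-like cells at 1239 CPM and T or NK-like cells at 1235 CPM (33 cells). The endothelial lead rested on the 80 cells of cluster 22, at 2491 CPM, since the 748 cells of cluster 9 held 1471 CPM (interval 1447 to 1496), which overlapped cluster 11 at 1488 CPM (1453 to 1523). Osteoclast-like cells held 936 CPM, next to mature osteoblast-like cells with 921 CPM, and their intervals overlapped. Over the 6 chondrocyte-like classes Junb spanned only 726 to 830 CPM. A Junb UMI was found in 97.3% of thinned cells of clusters 11 and 13 and in 96.2% of thinned osteoclast-like cells, against 31.8% of late erythroid-like cells.

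Jund, the steady member of the Jun family, varied less over the classes than Jun, Junb or Fos. Its highest level was 930 CPM in F3-rich chondrocyte-like cells and its lowest 93.4 CPM in neutrophil myelocyte-like cells, a 9.09-fold spread once 10 CPM were added to each side, where Jun had 27.5-fold, Junb 17.4-fold and Fos 63.2-fold. Ier2 was close at 9.43-fold, and the scarce Fosl1 had 4.98-fold. The 7 highest classes of Jund formed a run in which each overlapped the next. B lineage-like cells held 591 CPM, level with fibroblast-like cells at 591 CPM, although Fos was 33.2 CPM in the former and 1198 CPM in the latter.

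**Figure D2:**
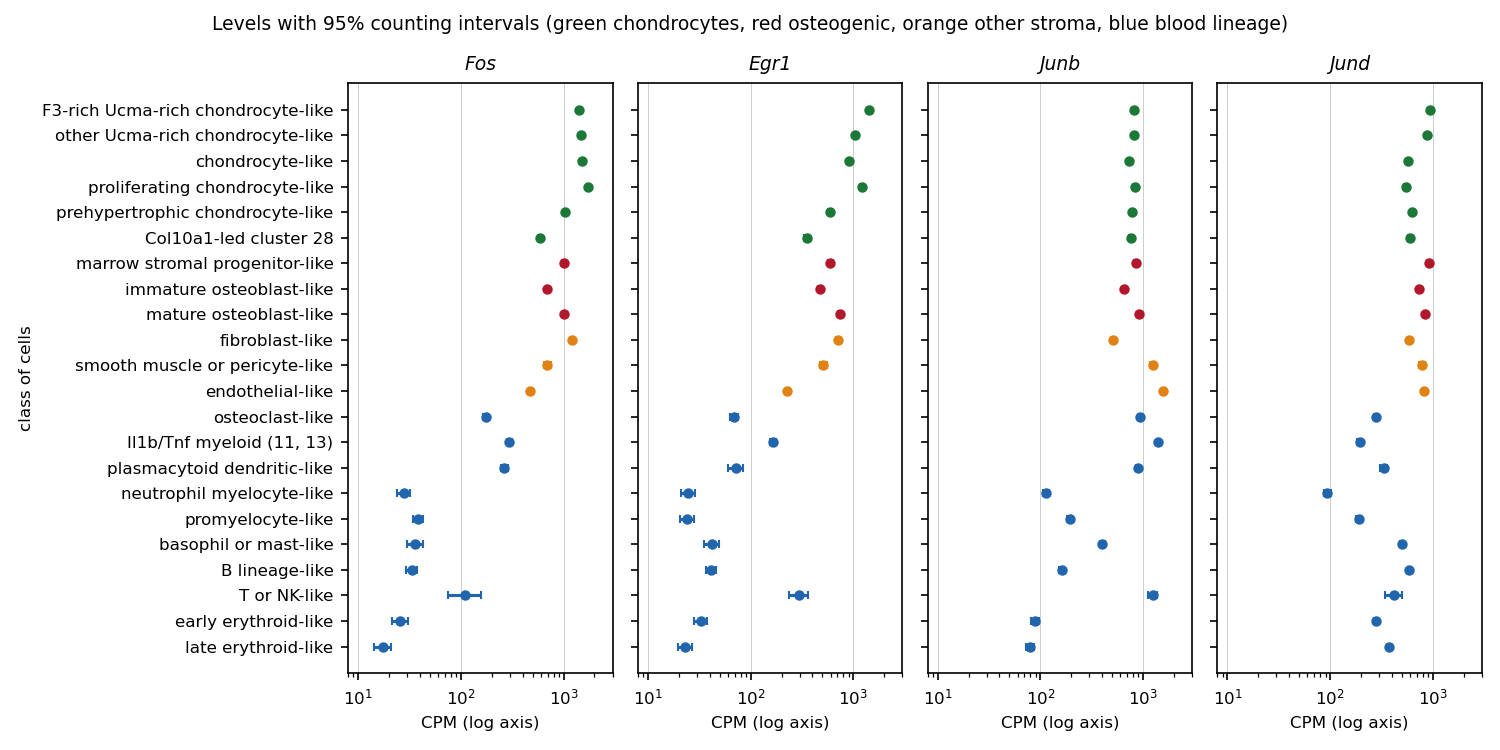
Level of Fos, Egr1, Junb and Jund (panels) in each class (rows) in CPM on a log axis, with 95% counting intervals, mostly narrower than the points. Fos runs from 17.4 to 1723 CPM with all blood-lineage points at the left, whereas blood-lineage points of Junb reach 1402 CPM and Jund stays between 93.4 and 930 CPM.

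Egr1, a zinc finger factor induced by the same signals as Fos, was highest in cartilage. It reached 1405 CPM in F3-rich chondrocyte-like cells (interval 1381 to 1430), 1203 CPM in proliferating and 1038 CPM in other Ucma-rich ones. The class named chondrocyte-like held 914 CPM, and no neighbours among these classes overlapped. Within that last class, cluster 19 held 1094 CPM (interval 1075 to 1114), above other Ucma-rich cluster 18 (1015 to 1062), and cluster 21 held 493 CPM. Cluster 28 held 353 CPM and endothelial-like cells 229 CPM, with 554 CPM in their cluster 22 and 198 CPM in cluster 9. Over the 22 classes, log2 levels of Fos and Egr1 had the highest correlation of the 45 pairs of genes (Pearson r = 0.955), and Jund and Fosl1 the lowest (r = 0.127). These values describe classes that share 1 library and its free RNA.

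Atf3, a stress-induced partner of Jun proteins that often acts as a repressor, was highest in mature osteoblast-like cells and, within cartilage, in prehypertrophic cells. Mature osteoblast-like cells held 496 CPM, with an interval from 481 to 512, ahead of prehypertrophic chondrocyte-like cells with 425 CPM and cluster 28 with 322 CPM. Immature osteoblast-like cells held 165 CPM and other Ucma-rich chondrocyte-like cells 156 CPM. By class, Ier2, a nuclear immediate early protein, was likewise highest in mature osteoblast-like cells at 663 CPM, and marrow stromal progenitor-like cells came next at 488 CPM. Among single clusters, endothelial-like cluster 22 (80 cells) was higher at 754 CPM (interval 697 to 814). Chondrocyte-like cluster 19 held 510 CPM.

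Of the Fos relatives that usually appear later, Fosl1 was scarce in all classes and Fosl2 in skeletal classes. Fosl1 was at 40.8 CPM in F3-rich chondrocyte-like cells (interval 36.7 to 45.1), 38.4 CPM in clusters 11 and 13, 32.2 CPM in prehypertrophic chondrocyte-like cells and 27.5 CPM in cluster 28, and each overlapped the next. All other classes lay at or below 14.7 CPM. Fosl2 was highest in endothelial-like cells at 218 CPM and pericyte-like cells at 201 CPM, followed by T or NK-like cells at 177 CPM and clusters 11 and 13 at 155 CPM. Skeletal classes held 46.5 to 88.0 CPM of Fosl2. Both genes thus ordered the classes unlike Fos.

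Within a class, single cells varied widely for Fos. Among thinned cells, the variance of Fos UMIs was 10.5 times its mean in F3-rich chondrocyte-like cells, 11.7 times in marrow stromal progenitor-like cells and 12.5 times in fibroblast-like cells, where 1 would be counting error alone. For Jund this ratio was 2.88 in F3-rich and 1.58 in mature osteoblast-like cells. The ratio nears 1 for any scarce gene, so Fosl1 and Fosl2 cannot be compared by it. From cell to cell, few pairs had a high correlation. In thinned chondrocyte-like cells Fos and Egr1 had r = 0.530 over 593 cells, and the median over the 45 pairs was 0.107. The Fos and Egr1 pair was the highest in 4 of the 6 classes examined, reaching 0.678 in endothelial-like cells.

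Chondrogenic and osteogenic cells were compared to ask whether cartilage and bone cells differ in these genes. Chondrogenic cells had more Fos, at 1372 CPM against 873 CPM, and more Egr1, at 974 CPM against 603 CPM. They had less Jun, at 560 CPM against 815 CPM, and less Fosb, at 588 CPM against 796 CPM. Log2 ratios were 0.65 for Fos (interval 0.63 to 0.68), 0.69 for Egr1, -0.54 for Jun and -0.44 for Fosb, and Junb was at -0.03. Fosl1 alone passed 2-fold, with 19.9 CPM in chondrogenic and 4.48 CPM in osteogenic cells, a log2 ratio of 1.93 (interval 1.66 to 2.20). Thus 1 of the 10 genes was at least 2-fold higher and 0 at least 2-fold lower, where 8.86% of all 8371 genes tested were at least 2-fold higher and 18% at least 2-fold lower. The median log2 ratio of the 10 genes was -0.28 and that of all genes tested -0.23. Median depth was 22070 UMIs per chondrogenic and 13252 per osteogenic cell, and the median mitochondrial shares were 3.71% and 5.34%. The part of either in these ratios was not tested.

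Skeletal cells, which here means chondrogenic and osteogenic cells together, were set against the blood lineage of the same marrow. Of the 10 genes, 7 were at least 2-fold higher in skeletal cells and 0 at least 2-fold lower, against 21.1% and 24.6% of all 9016 genes tested. Egr1 stood at 870 CPM against 54.6 CPM, Fos at 1232 CPM against 91.2 CPM and Fosb at 646 CPM against 51.2 CPM, which gave log2 ratios of 3.97, 3.74 and 3.63. Atf3 (2.68), Jun (2.37), Ier2 (1.34) and Jund (1.23) were the others past 2-fold. Fosl1 (0.97), Junb (0.80) and Fosl2 (0.32) lay within it, and without the erythroid classes Fosl2 was at -0.01. The median log2 ratio of the 10 genes was 1.86 and that of all genes tested -0.27. Median depths were 18767 and 12070 UMIs per cell and median mitochondrial shares 4.50% and 4.44%.

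Endothelial-like cells, which are neither skeletal nor hematopoietic, also stood above the blood lineage. Of the 10 genes, 9 were at least 2-fold higher and 0 lower, against 24.8% of all genes tested higher and 16.1% lower. Fosb had a log2 ratio of 3.31, Atf3 of 2.74 and Jun of 2.42, while Fosl1 missed 2-fold at 0.89. This comparison shares the blood-lineage cells with the previous one.

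**Figure D3:**
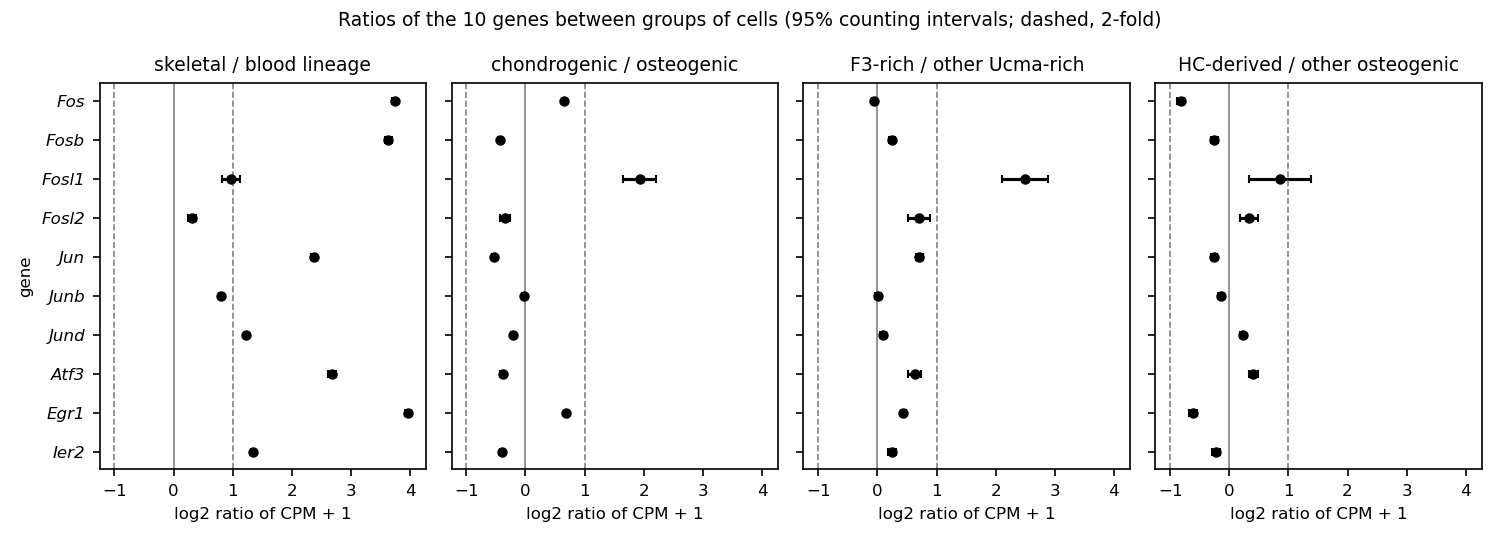
Log2 ratio of CPM + 1 for each of the 10 genes (rows) in 4 comparisons (panels), with 95% counting intervals and dashed lines at 2-fold. In the skeletal panel 7 points lie beyond 2-fold, in the chondrogenic and the F3-rich panels Fosl1 alone does, and in the HC-derived panel none does.

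Steps of maturation were compared within each lineage. From prehypertrophic chondrocyte-like cells to cluster 28, all 10 genes had log2 ratios below 0, with Fos at -0.79, Egr1 at -0.74 and Fosb at -0.55, and the intervals of Junb, Ier2 and Fosl1 reached 0. None passed 2-fold in either direction, against 19.2% of genes tested at least 2-fold higher and 6.26% lower, and the median over all genes tested was 0.40. From immature to mature osteoblast-like cells, Atf3 was 3.01-fold higher at 496 CPM against 165 CPM, a log2 ratio of 1.59. It was the 1 gene of the 10 past 2-fold, none was 2-fold lower, and 4.48% of genes tested were at least 2-fold higher and 18.9% lower. Egr1 (0.64), Ier2 (0.63), Fos (0.54) and Junb (0.51) were higher by less, and Fosb (-0.33) and Jun (-0.19) were lower. Mature cells also had more UMIs per cell, with medians of 18984 and 11474.5.

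The Ucma-rich chondrocytes, which carry a marker of resting and upper zone cartilage, held 3 clusters that differed in F3. They were named by marker genes among the leading genes and not by Ucma level, and cluster 18 joined through Sfrp5. Proliferating cluster 25 had as much Ucma as the lowest of them (1537 CPM against 1475 CPM) and 28.3 CPM of F3. Its leading genes held Matn3 of the general chondrocyte markers and none of the Ucma-rich markers, so it is not among them. Clusters 14 (412 cells) and 2 (145 cells) had 176 and 200 CPM of F3 and are called F3-rich, and cluster 18 (371 cells) had 12.6 CPM. F3 chose the sides, so its difference is not a result. After thinning, an F3 UMI was found in 35.7% of F3-rich cells and 6.76% of the others, and in 0.860% of late erythroid-like cells.

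Fosl1 and Fosl2 were higher in F3-rich than in other Ucma-rich cells, whereas the Fos ratio depended on how the cells were divided. The other Ucma-rich cells were the lowest chondrocyte-like class for both Fosl1 and Fosl2. Against all other chondrogenic cells, F3-rich cells had log2 ratios of 1.40 for Fosl1 and 0.36 for Fosl2. Prehypertrophic chondrocyte-like cells held 84.1 CPM of Fosl2 and F3-rich cells 76.2 CPM. Fos stood at 1842 CPM in cluster 2, 1307.5 CPM in cluster 14 and 1465 CPM in cluster 18, so that the F3-rich clusters lay on either side of the other one, and the pooled log2 ratio was -0.05 (interval -0.09 to -0.02). Fosl1 stood at 35.2 CPM in cluster 2 and 42.1 CPM in cluster 14 against 6.42 CPM in cluster 18, a log2 ratio of 2.49 (interval 2.10 to 2.88). Fosl2 stood at 68.7 and 78.0 CPM against 46.5 CPM, a log2 ratio of 0.70 (interval 0.51 to 0.89). For Fosl1 and Fosl2 the counting intervals of both F3-rich clusters lay above that of cluster 18. Jun (0.71), Atf3 (0.63) and Egr1 (0.44) were also higher and Junb (0.01) level. Of the 10 genes, 1 was at least 2-fold higher and 0 lower, against 5.6% of 7251 genes tested higher and 1.23% lower. At a finer clustering (resolution 1.5) the ratios of Jun, Egr1 and Atf3 took the other sign (-0.59, -0.23 and -0.07), Fos was at -0.80, and Fosl1 was 1.12 and Fosl2 0.58.

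The same contrast was drawn cell by cell. Among thinned Ucma-rich cells, 223 had an F3 UMI and 701 had none. Cells with one had less Fos, at 1085 CPM against 1595 CPM (log2 ratio -0.56), and more Fosl1, at 62.8 CPM against 19.4 CPM (1.64), and more Fosl2, at 92.4 CPM against 55.6 CPM (0.72). Jun was at 0.13 and Egr1 at 0.04. Within the F3-rich clusters alone, 198 cells with an F3 UMI were at -0.64 for Fos, -0.57 for Atf3, 1.15 for Fosl1 and 0.64 for Fosl2 against 356 cells without. In the other Ucma-rich cluster only 25 cells had an F3 UMI, and the Fosl1 ratio there (0.08) had an interval from -2.53 to 2.68.

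Genes that act around AP-1 were counted over lists in the same F3-rich comparison. Of 12 AP-1 target genes tested, 11 were at least 2-fold higher in F3-rich cells and 0 lower, against 5.6% and 1.23% of all genes tested. Their median log2 ratio was 1.93, where all genes tested had -0.01. Taken singly, cluster 14 had a list median of 2.08 and cluster 2 of 1.34, where all genes tested had -0.02 and 0.07. Against all other chondrogenic cells the median of the list was 1.27, where all genes tested had -0.09. The summed level of the 14 listed genes was 1925 CPM in F3-rich and 509 CPM in other Ucma-rich cells, the lowest chondrocyte-like class. Prehypertrophic chondrocyte-like cells held 1422 CPM and cluster 28 held 2601 CPM. Mmp13, a collagenase of cartilage resorption, stood at 136 CPM against 5.86 CPM, Mmp9 at 59.7 CPM against 3.07 CPM, the urokinase receptor gene Plaur at 109 CPM against 15.6 CPM, and the protease inhibitor gene Timp1 at 673 CPM against 174 CPM. Mmp13 and Mmp9 met the limit of 10 CPM for testing only on the F3-rich side. The list had been chosen with earlier results of these data known, so its count is a description and not a test. Genes of this list, apart from the Mmp genes, could take part in the clustering. Droplets called as holding 2 cells (doublets) were kept, and made up 4.13% of F3-rich and 0.539% of other Ucma-rich cells. The lists were not recounted without them, so the part of mixed droplets in these levels was not tested. Of 9 feedback inhibitors tested, 6 were higher and 0 lower, with a median of 1.49. Among them Trib1 had a log2 ratio of 2.71, Dusp5, a phosphatase that inactivates ERK, of 2.09 and Dusp2 of 1.70, while Socs3, a brake on cytokine signaling, was at 0.08. The feedback list and those below were likewise chosen with earlier results known. In each, a gene could meet the limit of 10 CPM through the F3-rich side alone.

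Other immediate early genes followed in part. Of 28 tested, 13 were at least 2-fold higher in F3-rich cells and 0 lower, against 5.6% and 1.23% of all genes tested. The median of this list was 0.84. Ier3 was at 634 CPM against 217 CPM and Zfp36, which speeds decay of AU-rich transcripts, at 286 CPM against 118 CPM. The matricellular genes Ctgf (0.59) and Cyr61 (0.29) lay within 2-fold. Of 12 AP-1 partners and relatives tested, 2 were higher, Maff (1.88) and Batf (1.72, named after its value was seen), and 0 lower, with Maf at 0.91 and Jdp2 at 0.24. Of 13 upstream factors and kinases tested, 0 passed 2-fold in either direction and the median was -0.02, with Elk3 at -0.15, Mapk3 (ERK1) at -0.47 and Mkl2 at -0.60.

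**Figure D4:**
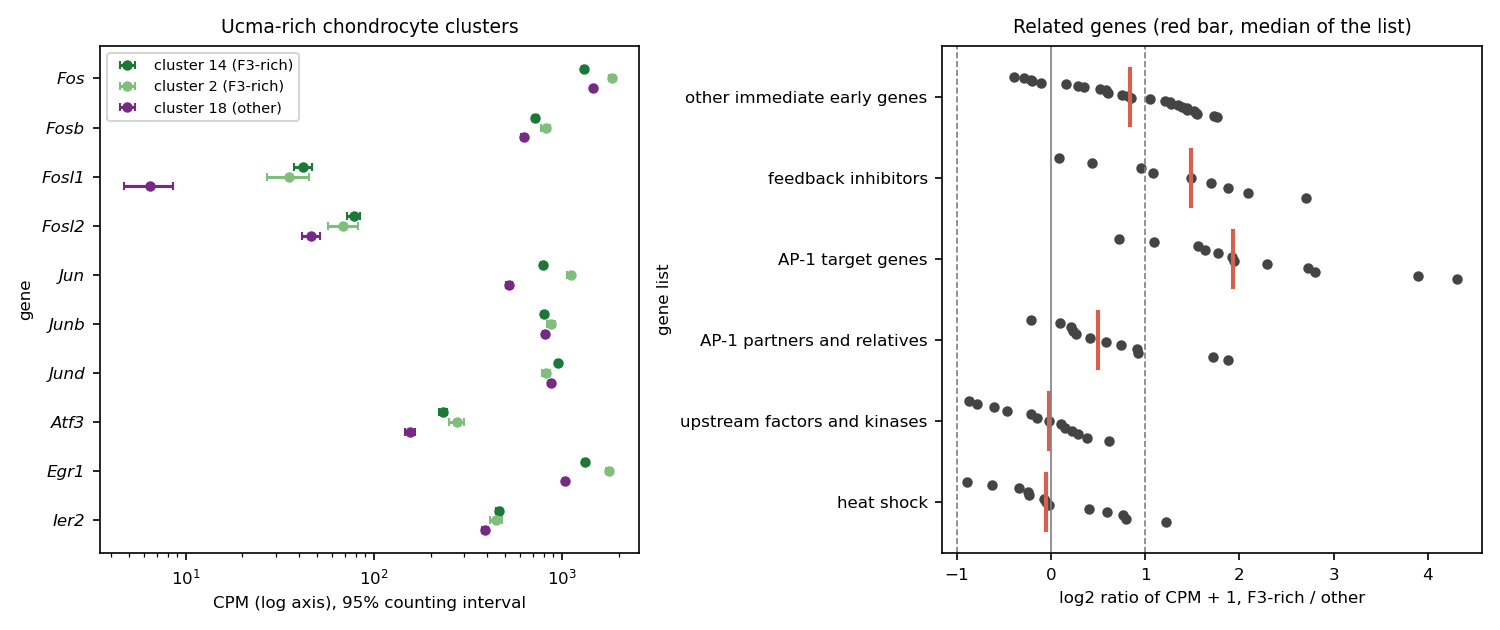
Left, level of the 10 genes (rows) in the 3 Ucma-rich clusters in CPM on a log axis with 95% counting intervals, where Fos of cluster 18 lies between the F3-rich clusters and Fosl1 of cluster 18 (6.42 CPM) lies below both. Right, log2 ratio of F3-rich over other Ucma-rich cells for each tested gene of 6 lists, with list medians as red bars from -0.05 (heat shock) to 1.93 (AP-1 target genes).

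Heat shock genes, which are induced with the immediate early genes when cells are stressed, were read beside these results. In the F3-rich comparison 1 of 13 tested was at least 2-fold higher and 0 lower, against 5.6% and 1.23% of all genes tested. The median of this list was -0.05. Hspb1 was at 1.22 and Bag3 at 0.80, whereas the mitochondrial chaperone genes Hspe1 and Hspd1 were at -0.24 and -0.23. Hspa1a, the most inducible of them and named after its values were seen, was lower in F3-rich cells at 32.8 CPM against 61.7 CPM. Of others named in the same way, Hspa1b was lower too, at 16.2 CPM against 25.6 CPM. Dnajb1 went the other way, at 218 CPM against 164 CPM. F3-rich cells did have a higher median mitochondrial share, 4.90% against 2.63%, and fewer UMIs per cell, 15274 against 19131. With cells limited to a mitochondrial share of at most 5% the Fosl1 ratio was 2.26 and the Fosl2 ratio 0.65. The part of isolation stress in these differences was not tested.

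Over all classes the summed heat shock level did not follow that of the 10 genes. It lay between 4049 and 4914 CPM in the chondrocyte-like classes, between 3838 and 5850 CPM in the osteogenic ones and between 1721 and 11925 CPM in the blood lineage. Early erythroid-like cells had the highest heat shock sum and 642 CPM of the 10 genes. Hspa8 (3230 CPM) and Hsp90aa1 (2448 CPM) were each highest of all classes there. The inducible Hspa1a and Hspa1b, in contrast with the sum, were lower in the blood lineage than in most other classes. Hspa1a held 1.22 to 24.3 CPM in the blood lineage, 11.5 to 61.7 CPM in the chondrocyte-like classes, 27.9 to 36.1 CPM in the osteogenic classes and 44.5 to 140 CPM in the fibroblast-like, endothelial-like and pericyte-like classes. Hspa1b held 0.612 to 6.94 CPM in the blood lineage and 6.17 to 49.7 CPM elsewhere. Their part in the differences of the 10 genes was not tested. The 28 other immediate early genes summed to 4940 to 7201 CPM in the chondrocyte-like classes, and to 8669 CPM in clusters 11 and 13, where the 10 genes had 2981 CPM.

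**Figure D5:**
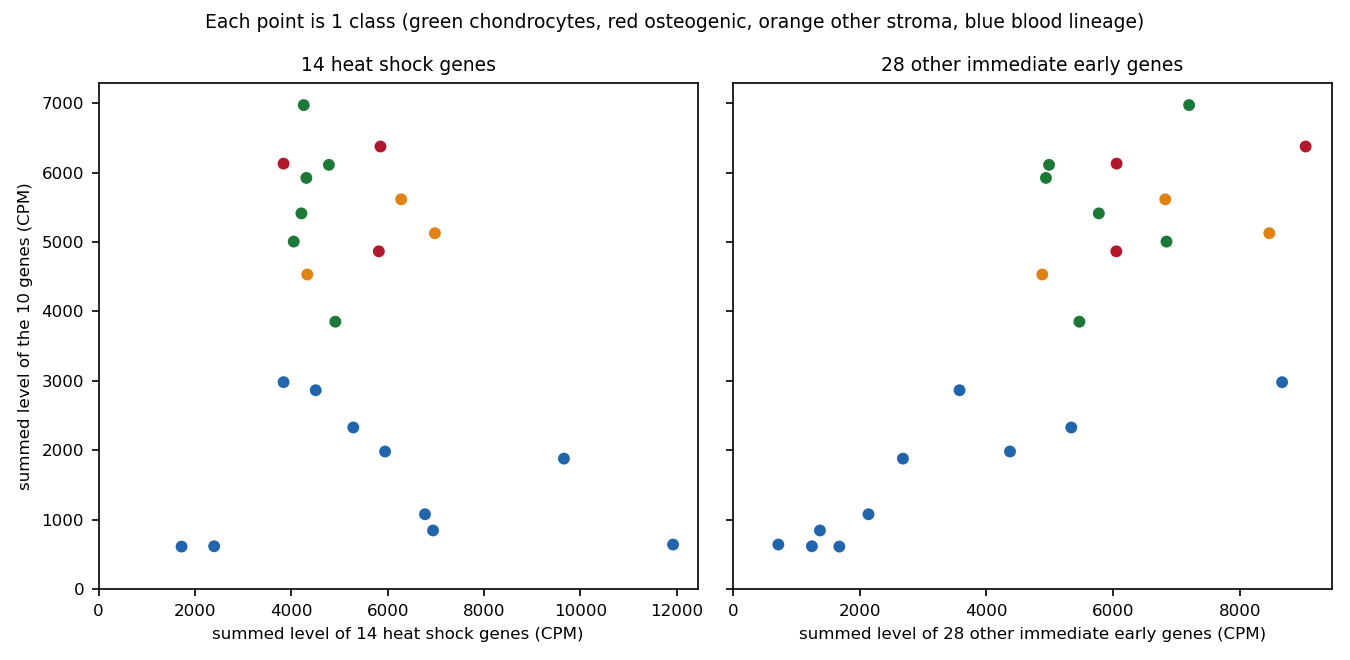
Summed level of the 10 genes (vertical axis, CPM) against the summed level of 14 heat shock genes (left) and of 28 other immediate early genes (right) in CPM, 1 point per class. Chondrocyte-like and osteogenic points lie between 3853 and 6975 CPM on the vertical axis and blood-lineage points at or below 2981 CPM, while heat shock sums of the blood lineage span 1721 to 11925 CPM.

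Cells within a class were also ranked by mitochondrial share and by depth and divided into 3 equal bins. In chondrocyte-like cells the top bin by mitochondrial share (median 4.76%) had more Egr1 (0.51), Jun (0.45), Fos (0.32) and Fosl1 (1.77) on the log2 scale than the bottom bin (2.35%). Mature osteoblast-like cells had more Fos (0.56) but less Jund (-0.28) in their top bin. Fosl1 was also lower there (-1.53, interval -2.59 to -0.47), on only 43 UMIs over the whole class. In 6 of the 8 classes ranked, Jund was lower in the top bin with ratios from -0.47 to -0.28, and it was -0.05 in immature osteoblast-like cells and 0.08 in clusters 11 and 13. By depth, Egr1 was lower in the deepest bin in 6 of 8 classes, down to -0.93 in clusters 11 and 13, and the intervals of prehypertrophic chondrocyte-like (-0.07) and mature osteoblast-like cells (0.03) reached 0. By mitochondrial share, Fos was lower in the top bin of F3-rich cells (-0.11) and of clusters 11 and 13 (-0.34). Some classes pool unlike clusters. Chondrocyte-like clusters 19 and 21 had median mitochondrial shares of 3.76% and 2.58% and 1742 and 953 CPM of Fos. F3-rich clusters 14 and 2 had median depths of 16680 and 10935 UMIs. The bins of these classes may thus differ in their mix of clusters, which was not tested. Mitochondrial share and depth moved with some of these genes inside a class, and their part in the differences between classes was not tested.

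HC-derived and other osteogenic cells were separated by the tracer. By the study's methods, the Cre that turns on the tracer also removes an Irx3 allele in HC. HC-derived cells thus differ from the others in Irx3 alleles as well as in origin. The comparisons that follow cannot tell these apart, and the part of either was not tested. Cells with more than 14 UMIs of WPRE, the viral element at the end of the tdTomato transcript, counted as HC-derived (286 of 1166 osteogenic cells, 24.5%), and 82 cells lay between 10 and 19 UMIs, near that limit. Among the blood-lineage cells 3 passed it. The gate is an absolute count, and HC-derived cells had a median of 15826 UMIs in all against 12532.5.

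HC-derived cells, which also differ from the others in Irx3 alleles, held less Fos and Egr1. Fos stood at 565 CPM against 1000.1 CPM, a log2 ratio of -0.82 (interval -0.88 to -0.77), and Egr1 at 439 CPM against 671 CPM, a ratio of -0.61. The direction was the same in each osteogenic class, with Fos at -0.60 in 36 HC-derived marrow stromal progenitor-like cells, -0.82 in 126 immature and -0.92 in 124 mature osteoblast-like cells, and Egr1 at -0.40, -0.65 and -0.70. In the mature class the median depths were close, at 18629 and 19113 UMIs. Atf3 (0.40) and Jund (0.22) were higher in HC-derived cells, and likewise in each class. Fosl1 rested on 37 and 44 UMIs, with a log2 ratio of 0.85. None of the 10 genes was past 2-fold in either direction over all osteogenic cells, against 0.644% of 8071 genes tested higher and 1.42% lower. After thinning to 5000 UMIs the Fos ratio was -0.80, and with at least 1 tdTomato UMI in place of WPRE (115 cells) it was -0.26, which is more than 1.5 times closer to 0.

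The lists were also counted between HC-derived and other osteogenic cells. Of all 8071 genes tested there, 0.644% were at least 2-fold higher and 1.42% lower. Of 28 other immediate early genes tested, 1 was at least 2-fold higher and 1 lower, 0 of 11 feedback inhibitors and 0 of 13 heat shock genes passed 2-fold, and 2 of 12 AP-1 target genes were higher. In the chondrogenic over osteogenic comparison 3 of 28 other immediate early genes were higher and 10 lower, beside 8.86% higher and 18% lower over all genes tested. Over the classes, the 4 genes named by rule differed among themselves, with Ctgf highest of all classes in prehypertrophic chondrocyte-like cells (1318 CPM), Cyr61 in chondrocyte-like cells (1448 CPM), Zfp36 in clusters 11 and 13 (836 CPM) and Ier3 in endothelial-like cells (1509 CPM).

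Partners and regulators of AP-1 had class patterns of their own. Jdp2, a repressor that pairs with Jun proteins and favors osteoclast formation, was highest at 395 CPM in the osteoclast-like cluster, which macrophage genes led. Maf was highest in marrow stromal progenitor-like cells at 217 CPM and Maff in pericyte-like cells at 175 CPM. The upstream genes Elk3, Mkl2 and Mapk3 were all highest in endothelial-like cells, at 208, 59.8 and 136 CPM, and Crem in T or NK-like cells at 361 CPM. Dusp5 and Dusp2 were highest in plasmacytoid dendritic-like cells (386 and 272 CPM), Socs3 in marrow stromal progenitor-like cells (306 CPM) and Trib1 in F3-rich chondrocyte-like cells (207 CPM). Of the AP-1 targets, Mmp13 was highest in marrow stromal progenitor-like cells at 4894 CPM, Mmp9 in immature osteoblast-like cells at 1132 CPM, Timp1 in mature osteoblast-like cells at 995 CPM and Plaur in clusters 11 and 13 at 988 CPM.

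Outside all lists, genes whose log2 levels over the 31 clusters were among the 5 most like Fos were Rarg (a retinoic acid receptor; r = 0.962), Fndc3b (0.958), Pofut2 (0.951) and Fam114a1 (0.942), out of 7319 genes with at least 50 CPM in a cluster. Those most like Jund were Armcx4 (0.866), Tceal9 (0.840), Selenow (0.839), Zdhhc8 (0.838) and Arl2bp (0.828). For Fosl1, added after its values were seen, the closest was Srxn1 at 0.799, a gene of the oxidative stress response that was also among the leading genes of F3-rich cluster 14.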

How the data were processed

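The authors deposited raw UMI counts of 1 10x library. Per the submitters' processing notes and the study's methods, reads had been aligned with Cell Ranger 3.1.0 to mm10 plus the tdTomato and WPRE sequences, and Seurat 3 is also named. No other unit was used. The filter here asked for 1600 genes or more, 10% mitochondrial and 50% ribosomal protein UMIs or less, which left 8255 of 14181 barcodes. Counts were scaled to 10000 per cell, and 2000 variable genes (without the 10 genes, the other immediate early, feedback and heat shock lists, Mmp genes and Pth1r), 30 components and 20 neighbours were clustered by Leiden (scanpy 1.11.5, resolution 1, seed 1). Names came from fixed marker lists, with limits on collagen, Ptprc and markers set after the clusters were seen. Ucma-rich clusters with at least 2 times the F3 level of all chondrogenic cells were called F3-rich. Scrublet called 588 doublets (4.15%, at an expected 10%), which were kept; 188 cells in 2 clusters with mixed markers stayed unnamed, 131 of them doublets.

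Levels are summed UMIs per 1000000 (CPM) with exact Poisson 95% intervals. Log2 ratios are of CPM + 1, with intervals from counting error. A gene was tested against 2-fold where it had at least 10 CPM on a side, and called where it passed. With 1 library, no test over samples, edgeR's included, and no p-value was possible. Shares of cells were taken after thinning to 5000 UMIs, with exact Clopper-Pearson intervals; between 0 and 147 cells a class were too shallow and left out. The ratio and the thinning were tested on simulated counts with known answers.

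The named genes were the 10 members and F3, the 5 genes most correlated with Fos and with Jund over clusters, and, of each of 6 lists, the 4 with the widest spread over classes (highest over lowest after adding 10 CPM, at least 50 CPM in a class). Some genes that this rule names are not reported here. The members and lists were chosen with earlier results of these data known. Alternatives were other cell filters, resolutions, variable genes, scalings, pseudocounts and tracer gates.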

Additional observations from a re-analysis of the deposited data

Results flagged for a closer look

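Fosb differed in direction between osteogenic classes when HC-derived cells were set against the others: the log2 ratio was 0.16 in marrow stromal progenitor-like cells, -0.40 in immature osteoblast-like cells and -0.10 in mature osteoblast-like cells, each with a counting interval on its side of 0. These intervals leave out the spread between cells. In thinned cells the variance of Fosb UMIs was 2.98, 2.79 and 2.32 times the mean in these classes, in the same order. The marrow stromal progenitor-like ratio rested on 36 HC-derived cells, and the difference between the classes was not tested.

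The genes were also read in the barcodes that the filters had left out. The 5476 barcodes with fewer than 1600 genes held 1491 CPM of the 10 genes together, and the 449 barcodes with enough genes but a mitochondrial share above 10% held 3480 CPM, against 3907 CPM in the kept cells. Fos was at 116 CPM in the former and 465 CPM in the latter.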

How the results depend on the processing

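The 4 comparisons were recomputed under 10 to 14 alternatives each, of which 4 were chosen after seeing the data (the larger F3-rich cluster alone, fibroblast-like cells counted as osteogenic, cluster 28 left out, and erythroid classes left out). No gene past 2-fold turned its direction under any of them. The count of genes at least 2-fold higher in HC-derived cells was 1 in place of 0 after thinning to 5000 UMIs, through Fosl1; the other counts stayed within 1.5 times. Between skeletal and blood-lineage cells Fosl1 was past 2-fold in 2 of 13 alternatives and Fosl2 took the other sign in 1 (-0.01, without the erythroid classes). Junb took the other sign in 8 of 14 alternatives between chondrogenic and osteogenic cells. In the F3-rich comparison Fos, Fosl1 and Fosl2 kept their signs in all 10 alternatives (-0.80 to -0.02, 1.12 to 2.75 and 0.43 to 0.80). The smaller F3-rich cluster 2 alone was not among the alternatives, and its Fos ratio had the other sign (0.33, interval 0.27 to 0.39). Under the alternatives, Fosb, Jun, Junb, Jund, Egr1, Atf3 and Ier2 each took the other sign in at least 1, and the cause was not tested. That comparison gave no value with at least 2000 genes, at a mitochondrial limit of 20%, at resolution 0.6, or with the lists kept among the variable genes, since no cluster was then left as other Ucma-rich.

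No paired analysis was possible because the 4 entries are 1 library, and leaving out a replicate was not possible for the same reason. Depth limits Fosl1 most, with 46 UMIs in the other Ucma-rich cells and 37 in HC-derived cells.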
